A study of Homo sapiens with 12 samples.

Results

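MHC class I antigen presentation is described here through 9 genes: the heavy chains HLA-B, HLA-C, HLA-E and HLA-F, their partner B2M, the peptide transporter genes TAP1 and TAP2, the loading factor TAPBP, and the regulator NLRC5. They were chosen by name, with earlier results of these data known, out of 60648 genes in the deposited table, and all 9 were found in it. Enough counts for testing were present for 8 members, as for 18289 genes in all. TAP2 was not among them.

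RNA was sequenced from poly-A selected libraries of HCT116, an established human colon carcinoma cell line grown in DMEM with fetal bovine serum. MTHFD2 encodes a mitochondrial folate enzyme. Wild-type (MTHFD2-WT) and knock-out (MTHFD2-KO) cells were each harvested early and late, which gave 4 groups of 3 libraries. The initial harvest came directly after the knock-out was made, and the final one followed 2 months in culture. The CRISPR-Cas9 knock-out was a single clone, so genotype and clone cannot be told apart, and the knock-out libraries are replicates of that clone. Nothing in the labels says that replicates came from separate cultures, so p-values measure the spread between libraries, which may be technical.

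Class I molecules show short peptides from inside the cell to CD8 T cells. The proteasome cuts proteins into peptides, the TAP1-TAP2 transporter moves them into the endoplasmic reticulum, and TAPBP (tapasin) bridges the transporter to an empty heavy chain bound to B2M while a peptide is loaded. HLA-B and HLA-C are classical, highly variable heavy chains. HLA-E presents mainly leader peptides of other class I chains to natural killer cell receptors, and HLA-F is a little-variable chain recognised by natural killer cells. NLRC5 is the transactivator of class I genes: it binds no DNA itself and is held at their promoters by RFX, CREB/ATF and NF-Y factors, while interferon regulatory factors and NF-kB act through further sites. Tumours, those of the colon included, are known to lose class I presentation at any of these steps.

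The promoters of 6 members are shown as background to the regulators named above. Some of these genes were called between genotypes and others were not, and differences between members were not tested. Each is the 250 bases before the RefSeq transcript start on GRCh38.p14, written 5′ to 3′ on the gene's own strand, and 7 of the 9 members matched the promoter table. HLA-E and NLRC5 did not match. Capitals mark matches, on either strand, to TGACGC (the core of the CREB/ATF-type X2 box), CCAAT (the NF-Y-type Y box, read ATTGG on the other strand), GAAA followed after any 2 bases by GAAA (the core of the interferon-stimulated response element, ISRE, read TTTC on the other strand) and the NF-kB consensus.
HLA-B: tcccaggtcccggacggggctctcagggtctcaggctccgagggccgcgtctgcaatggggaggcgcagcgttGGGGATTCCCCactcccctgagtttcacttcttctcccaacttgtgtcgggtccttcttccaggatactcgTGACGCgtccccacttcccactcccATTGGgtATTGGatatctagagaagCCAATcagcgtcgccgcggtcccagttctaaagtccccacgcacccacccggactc
HLA-C: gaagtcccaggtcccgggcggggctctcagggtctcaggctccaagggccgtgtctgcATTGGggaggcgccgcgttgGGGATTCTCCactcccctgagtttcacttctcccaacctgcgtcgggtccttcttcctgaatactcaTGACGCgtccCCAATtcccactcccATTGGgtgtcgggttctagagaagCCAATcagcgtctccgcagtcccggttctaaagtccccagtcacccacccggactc
HLA-F: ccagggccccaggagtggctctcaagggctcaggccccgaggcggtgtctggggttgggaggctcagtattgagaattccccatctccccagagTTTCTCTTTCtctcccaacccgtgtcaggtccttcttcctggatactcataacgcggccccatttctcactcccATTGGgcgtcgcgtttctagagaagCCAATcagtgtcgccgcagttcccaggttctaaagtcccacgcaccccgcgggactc
B2M: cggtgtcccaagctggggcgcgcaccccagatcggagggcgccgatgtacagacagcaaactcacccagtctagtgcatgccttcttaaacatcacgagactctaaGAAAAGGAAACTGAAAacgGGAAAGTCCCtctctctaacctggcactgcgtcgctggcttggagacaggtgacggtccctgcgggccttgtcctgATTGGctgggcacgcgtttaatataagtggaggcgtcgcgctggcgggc
TAP1: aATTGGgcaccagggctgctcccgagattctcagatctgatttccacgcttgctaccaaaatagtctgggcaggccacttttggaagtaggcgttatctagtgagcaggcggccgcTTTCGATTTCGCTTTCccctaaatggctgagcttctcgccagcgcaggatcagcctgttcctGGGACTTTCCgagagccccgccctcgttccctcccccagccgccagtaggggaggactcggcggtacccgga
TAPBP: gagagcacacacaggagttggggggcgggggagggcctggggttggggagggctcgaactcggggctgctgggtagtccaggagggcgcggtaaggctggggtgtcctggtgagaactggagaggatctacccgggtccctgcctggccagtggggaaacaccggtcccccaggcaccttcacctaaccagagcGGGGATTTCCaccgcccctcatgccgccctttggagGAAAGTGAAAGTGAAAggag

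These windows are chr6:31357180-31357429 for HLA-B, chr6:31272093-31272342 for HLA-C, chr6:29723184-29723433 for HLA-F, chr15:44711267-44711516 for B2M, chr6:32853705-32853954 for TAP1 and chr6:33314079-33314328 for TAPBP. HLA-F and B2M lie on the plus strand and the others on the minus strand. TGACGC was matched in HLA-B, from 106 to 101 bases before the start (-106 to -101), and in HLA-C (-105 to -100), followed in both by CCAAT matches nearer the start. HLA-B held 3 CCAAT matches, HLA-C 4, HLA-F 2, and B2M and TAP1 1 each. The ISRE core matched once in HLA-F (-156 to -147) and at 2 overlapping places each in B2M (-144 to -129), TAP1 (-134 to -119) and TAPBP (-20 to -5). HLA-B and HLA-C held no match to this fixed string, which misses any site that departs from it, so an ISRE there is not excluded. NF-kB consensus matches stood in HLA-B (2, overlapping), HLA-C, B2M, TAP1 and TAPBP, 1 in each of the last 4. A second RefSeq start of TAP1 had no match in its window, and the TAP2 window held 1 TGACGC and 1 ISRE core. Among 35116 promoter windows of the same length, 7.67% held TGACGC, 32.0% CCAAT, 3.02% the ISRE core and 9.96% the NF-kB consensus. A match is a string of letters, not a measured site.

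Library totals ran from 38597809 to 40017561 counts. MTHFD2 itself, as a check of the labels, was at 413 ± 41.2 TMM-scaled CPM in initial wild type, 355 ± 32.4 in final wild type, 137 ± 9.10 in initial knock-out and 137 ± 16.7 in final knock-out (SD, n = 3). TMM-scaled CPM are counts scaled to the library total (CPM) after edgeR's TMM scaling, and all CPM below are of this kind. The transcript was thus lower but present in the knock-out, with a log2 fold change of -1.59 (SE 0.108, adjusted p = 3e-08, edgeR) initially and of -1.38 (SE 0.107, adjusted p = 1.09e-07, edgeR) finally. Of 8 colon epithelial markers, EPCAM, CDH1, KRT8, KRT18, KRT19 and CDX2 were well detected, while VIL1 had at most 12 and CDX1 at most 1 count in a library. Of 10 blood cell markers, which would point to cells rich in class I, CD3D and CD3E were at 0 in all libraries, the pan-leukocyte gene PTPRC had at most 2 counts, and 5 of the 10 had 3 or fewer counts everywhere. The list summed to between 1.64 and 2.99 CPM in wild-type and between 2.72 and 3.83 in knock-out libraries, with LYZ higher in the knock-out (2.48 initially and 1.48 finally). In bulk RNA, fewer cells carrying a transcript and less of it per cell cannot be told apart.

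Per kilobase of exon length in the table, HLA-C and B2M were the most abundant members in all 4 groups. Levels between genes are given in RPKM, the TMM-scaled CPM per kilobase of that length. It covers all exon bases listed for a gene, which can exceed the length of its transcript. It was 2507 bases for HLA-C, 5455 for B2M and 12386 for NLRC5, and the order of the members depends on it. In CPM B2M stood above HLA-C, at 109 against 69.2 in initial wild type. In initial wild type the mean was 27.6 ± 1.46 RPKM for HLA-C, 20.1 ± 1.73 for B2M and 11.0 ± 0.282 for HLA-E. TAP1 followed at 3.42 ± 0.0739, TAPBP at 2.82 ± 0.276 and HLA-B at 2.57 ± 0.148 RPKM (SD, n = 3). NLRC5 stood at 1.55 ± 0.0993 and HLA-F at 0.783 ± 0.0951 RPKM. Neighbours in the order of that group were apart by more than the range of their libraries, except TAPBP and HLA-B, whose libraries overlapped. In both knock-out groups TAP1 and TAPBP also overlapped, and in the final knock-out so did HLA-B and NLRC5. Among the 4 heavy chains here, HLA-C held 65.8% ± 1.45 of the summed RPKM in initial wild type and 66.7% ± 0.695 in final wild type. In the knock-out that share was 70.4% ± 1.53 initially and 70.5% ± 1.11 finally, and the 6 knock-out libraries (68.9% to 71.9%) all lay above the 6 wild-type ones (64.1% to 67.5%). Class I genes are close copies that vary between people, and the handling of reads that fit several genes or differ from the reference is not given in the sources used here. The levels of single heavy chains, HLA-B and HLA-C above all, are uncertain for that reason.

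**Figure D1:**
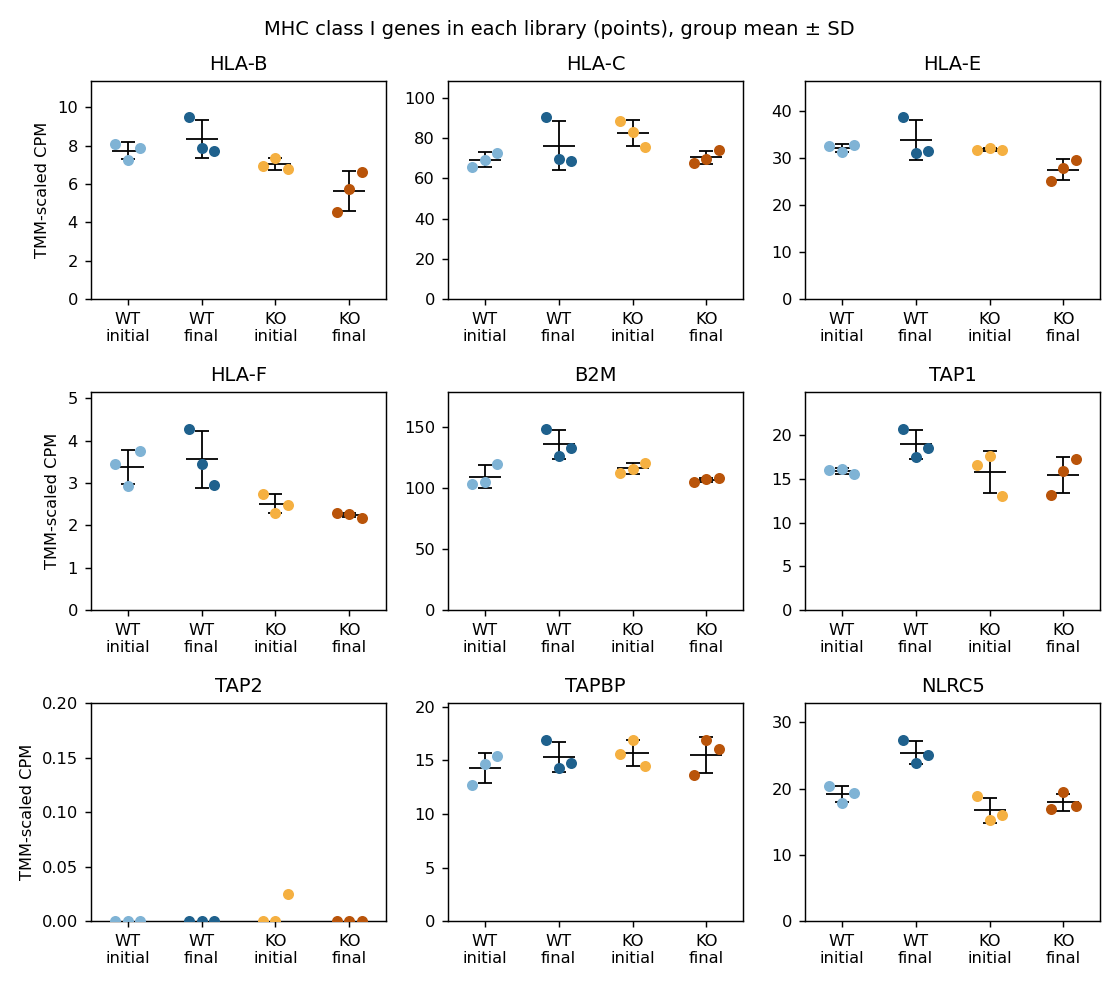
TMM-scaled CPM of the 9 members in each of the 12 libraries, 1 panel per gene; points are libraries in replicate order, the line and bar are the group mean ± SD (n = 3), and each panel has its own axis from 0. HLA-B, HLA-E, HLA-F, B2M, TAP1 and NLRC5 lie lower in all 3 final knock-out libraries than in all 3 final wild-type libraries, and TAP2 has 1 count in a single library.

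Of the classical heavy chains, HLA-B (ENSG00000234745.13, chr6:31353872-31357188, minus strand) fell in the knock-out at the final harvest and HLA-C did not pass the test. HLA-B was at 8.11, 7.24 and 7.86 CPM in initial wild type, 9.47, 7.87 and 7.71 in final wild type, 6.94, 7.37 and 6.79 in initial knock-out, and 4.53, 5.74 and 6.63 in final knock-out. The 3 final knock-out libraries were the lowest 3 of all 12, and replicate 1 was lowest among them. At the final harvest the knock-out had 67.5% of the wild-type level (log2 fold change -0.57, SE 0.133, adjusted p = 0.0062, edgeR). At the initial harvest the libraries of both genotypes overlapped, at -0.14 (SE 0.131, adjusted p = 0.515). Within the knock-out, all final libraries lay under all initial ones, but the difference did not pass the test (-0.32, SE 0.134, adjusted p = 0.272).

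HLA-C (ENSG00000204525.17, chr6:31268749-31272130, minus strand) was at 65.5, 69.3 and 72.9 CPM in initial wild type, 90.3, 69.8 and 68.9 in final wild type, 88.5, 83.2 and 75.8 in initial knock-out, and 67.6, 69.7 and 74.0 in final knock-out. At the initial harvest all 3 knock-out libraries lay above all 3 wild-type libraries. That difference missed the threshold (log2 fold change 0.25, SE 0.101, adjusted p = 0.0918, edgeR). At the final harvest the groups overlapped at 92.3% of wild type (-0.12, SE 0.101, adjusted p = 0.493), and without final wild-type replicate 1 the difference was 0.02.

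HLA-E and HLA-F, the non-classical chains, were both lower in the final knock-out. HLA-E (ENSG00000204592.9, chr6:30489509-30494194, plus strand) lay between 31.1 and 32.7 CPM in 8 libraries, all but final wild-type replicate 1 above and the final knock-out below. It was at 32.6, 31.2 and 32.7 CPM in initial wild type, 38.6, 31.1 and 31.6 in final wild type, 31.7, 32.2 and 31.7 in initial knock-out, and 25.1, 27.95 and 29.5 in final knock-out. The final knock-out libraries were again the lowest 3 of 12, at 81.4% of final wild type (-0.30, SE 0.093, adjusted p = 0.0351, edgeR), against -0.01 (adjusted p = 0.936) at the initial harvest. This call was lost without final wild-type replicate 1, where the difference was -0.19 (adjusted p = 0.149), and also without final knock-out replicate 1 (adjusted p = 0.151), final knock-out replicate 2 (adjusted p = 0.0737) or initial knock-out replicate 2 (adjusted p = 0.0521).

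HLA-F (ENSG00000204642.14, chr6:29722775-29738528, plus strand) was the scarcest of the tested members, with 87 to 158 counts in a library. It was at 3.44, 2.94 and 3.75 CPM in initial wild type, 4.29, 3.44 and 2.95 in final wild type, 2.75, 2.31 and 2.48 in initial knock-out, and 2.29, 2.27 and 2.19 in final knock-out. Each of the 6 knock-out libraries was lower than each of the 6 wild-type libraries. The final knock-out had 63.3% of the wild-type level (-0.66, SE 0.157, adjusted p = 0.00687, edgeR). At the initial harvest the difference of -0.43 (SE 0.155) had an adjusted p of 0.0647. Over both harvests together it was -0.54 (SE 0.111, adjusted p = 0.00129). Genes on the other strand cover 1209 of the 4315 exon bases of HLA-F, and without knowing whether counting used strand, reads of either strand cannot be told apart there. HLA-F-AS1, 1 of these 3 genes, had 31 counts over all 12 libraries against 1379 for HLA-F, and the other 2 had 0.

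B2M (ENSG00000166710.21, chr15:44711487-44718851, plus strand), the light chain needed by all heavy chains, was at 103, 105 and 120 CPM in initial wild type, 149, 126 and 133 in final wild type, 112, 116 and 121 in initial knock-out, and 105, 107 and 108 in final knock-out. Final wild type stood above every other library, while initial wild type and both knock-out groups lay between 103 and 121 CPM. The final knock-out therefore had 78.6% of the final wild-type level (-0.35, SE 0.083, adjusted p = 0.00707, edgeR) and the initial knock-out did not differ by the test (0.09, SE 0.083, adjusted p = 0.496). In wild type B2M rose between harvests by 0.31 (SE 0.083, adjusted p = 0.032, edgeR). That rise was lost without final wild-type replicate 1 or 3, initial wild-type replicate 1 or 2, or initial knock-out replicate 2. In the knock-out the 3 final libraries lay just under the 3 initial ones (-0.12, adjusted p = 0.528). The ratio of B2M to the summed 4 heavy chains here, in RPKM, was 0.478 ± 0.0234 in initial wild type, 0.550 ± 0.0376 in final wild type, 0.459 ± 0.0437 in initial knock-out and 0.492 ± 0.0226 in final knock-out (SD, n = 3). Its size depends on the exon lengths in the table, so it is no count of molecules. The libraries of these groups overlapped, apart from final wild type, which lay above initial wild type and initial knock-out.

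TAP1 (ENSG00000168394.12, chr6:32845209-32853816, minus strand), a subunit of the peptide transporter, was at 16.02, 16.1 and 15.5 CPM in initial wild type, 20.7, 17.5 and 18.5 in final wild type, 16.6, 17.6 and 13.1 in initial knock-out, and 13.1, 15.9 and 17.3 in final knock-out. Final wild type lay above initial wild type and above final knock-out without overlap. Neither difference passed the test, with 0.25 (SE 0.12, adjusted p = 0.258, edgeR) for time in wild type and -0.29 (SE 0.121, adjusted p = 0.108, edgeR) for genotype at the final harvest. The knock-out groups spread widely, with an SD of 2.38 CPM initially and 2.10 finally, against 0.343 in initial wild type. PSMB8-AS1 covers 577 of the 4643 exon bases of TAP1 on the other strand and had 0 counts.

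TAP2 (ENSG00000204267.16, chr6:32821833-32838770, minus strand), the other transporter subunit, had 1 count in all 12 libraries together, in initial knock-out replicate 3. A count of 0 allows up to 3 counts, which is 0.0733 to 0.0814 CPM in these libraries. Of its 6380 exon bases, 2054 are shared with a read-through gene (ENSG00000250264) on the same strand, which had 0 counts, and 4326 are shared with no gene. Among the listed pathway genes, 7 share at least 25 percent of their exon bases with a gene on the same strand. Of these 7, TAP2 and IRF9 had 3 or fewer counts in all libraries together, while PVR had 70787 and IFNAR2 had 912. So few counts were also found for 0 of 21 genes that share less and 4 of 133 that share none. Whether the TAP2 transcript was scarce or its reads were left uncounted was not tested.

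TAPBP (ENSG00000231925.12, chr6:33299694-33314387, minus strand), or tapasin, was at 12.7, 14.6 and 15.4 CPM in initial wild type, 16.9, 14.3 and 14.8 in final wild type, 15.6, 16.9 and 14.4 in initial knock-out, and 13.6, 16.9 and 16.1 in final knock-out. All groups overlapped. Its genotype difference was 0.13 (SE 0.11, adjusted p = 0.44, edgeR) initially and 0.02 (SE 0.11, adjusted p = 0.935, edgeR) finally, and the latter took either sign as single libraries were left out (-0.05 to 0.10).

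NLRC5 (ENSG00000140853.16, chr16:56989485-57083531, plus strand), the class I transactivator, rose in wild type and was lower in the final knock-out. It was at 20.3, 17.9 and 19.3 CPM in initial wild type, 27.4, 23.9 and 24.99 in final wild type, 18.9, 15.3 and 16.1 in initial knock-out, and 16.96, 19.4 and 17.3 in final knock-out. Final wild type lay above all 9 other libraries, which ran from 15.3 to 20.3 CPM. The final knock-out had 70.5% of the wild-type level (-0.51, SE 0.0997, adjusted p = 0.00173, edgeR), the smallest adjusted p of the members in that comparison. The rise in wild type was 0.41 (SE 0.0993, adjusted p = 0.0209, edgeR). It was no longer called without initial wild-type replicate 2 (adjusted p = 0.0542) or 3 (adjusted p = 0.0753), or final wild-type replicate 1 (adjusted p = 0.0604) or 3 (adjusted p = 0.0603). At the initial harvest the genotypes overlapped (-0.19, adjusted p = 0.2), and in the knock-out the harvests overlapped (0.10, adjusted p = 0.711).

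Counted together at the final harvest, 5 of 8 tested members were lower in the knock-out (HLA-B, HLA-E, HLA-F, B2M and NLRC5) and 0 were higher, by edgeR's quasi-likelihood test with Benjamini-Hochberg adjustment over all 18289 genes. Of all tested genes, 10.2% were called lower and 8.38% higher in that comparison. Libraries of 6 members did not overlap, all lower in the knock-out, against 17.2% of all genes. The median log2 fold change was -0.32 over the 8 members and 0.00 over all genes. Each of HLA-B, HLA-F, B2M and NLRC5 was called in 19 of 20 alternative analyses, and HLA-E in 12 of 20. Markers of the epithelial line moved in the same comparison: the 8 markers summed to between 2214 and 2588 CPM in final knock-out and between 3061 and 3202 in final wild type, and EPCAM (-0.31), CDH1 (-0.44), KRT18 (-0.36) and KRT19 (-0.54) were called lower, while CDX2 was at 0.01 (adjusted p = 0.959). Fibroblast markers summed to between 43.4 and 59.3 CPM in final knock-out and between 60.2 and 78.8 in final wild type, of which COL1A1 made up most, with DCN and LUM at 0 in all libraries. COL1A1 was called lower (-0.48) and PDGFRB, of the same list, higher (1.08, adjusted p = 0.00333, edgeR). The 4 endothelial markers summed to between 2.86 and 3.27 CPM in final knock-out and between 2.01 and 2.77 in final wild type, with KDR called higher (0.67, adjusted p = 0.0298, edgeR) and CDH5 at no more than 2 counts in a library. The part of these markers in the result was not tested.

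At the initial harvest 0 of 8 members were called between genotypes by edgeR or by DESeq2, with 2 (HLA-C and HLA-F) at an unadjusted p under 0.05. The background there was 19.9% of all genes called by adjusted p, and the share of all genes at that unadjusted level was not counted. Both of those members had libraries that did not overlap, HLA-C higher (17.1% of all genes) and HLA-F lower (18.4%). The median of the members was -0.01. HLA-F was called without initial wild-type replicate 2, and both were called without final wild-type replicate 1. Averaged over both harvests, 3 members were lower, namely NLRC5 (-0.35, adjusted p = 0.00124), HLA-F (-0.54, adjusted p = 0.00129) and HLA-B (-0.35, adjusted p = 0.00877), against 16.1% of all genes called lower.

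**Figure D2:**
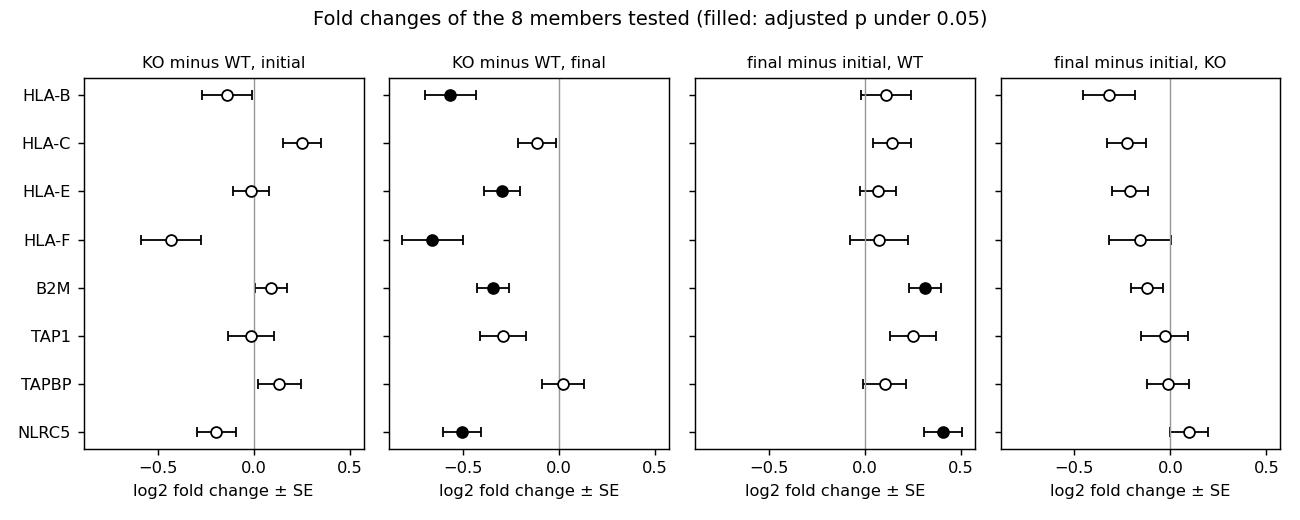
Log2 fold change ± SE (horizontal axis) of the 8 tested members in 4 comparisons, filled where the edgeR adjusted p is under 0.05. Filled points are 0 of 8 for genotype at the initial harvest, 5 of 8 below 0 for genotype at the final harvest, 2 of 8 above 0 for time in wild type, and 0 of 8 for time in the knock-out.

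Over time, B2M and NLRC5 rose in wild type and no member passed the test in the knock-out. In wild type 2 of 8 were called higher at the final harvest (B2M and NLRC5), against 3.05% of all genes, and 3 (TAP1 besides) did not overlap, against 10.8%. Estimates were above 0 for all 8 members, with a median of 0.13 against 0.0056 over all genes. Without final wild-type replicate 1, however, those of HLA-C, HLA-E and HLA-F were -0.0047, -0.04 and -0.09. That of HLA-F was -0.02 without initial wild-type replicate 2. In the knock-out 0 of 8 were called by edgeR or DESeq2, where edgeR called 1.48% of all genes by adjusted p. At an unadjusted p under 0.05 stood 3 members, and the share of all genes at that level was not counted. Within the knock-out 5 members (HLA-B, HLA-C, HLA-E, HLA-F and B2M) had every final library under every initial one, against 11.3% of all genes, and the median was -0.14.

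The interaction, the final genotype difference minus the initial one, was below 0 for all 8 members with a median of -0.30, against 0.0053 over all genes. It remained below 0 for each member with any single library left out. It ranged from -0.12 for TAPBP to -0.44 for B2M. At an unadjusted p under 0.05 stood 5 members, and the share of all genes at that level was not counted. By edgeR's adjusted p 0 of 8 passed, against 1.28% of all genes called, and the smallest adjusted p was 0.094, for B2M (SE 0.117). DESeq2 called B2M at the same size (-0.44, adjusted p = 0.0211), the lowest of its 19 alternatives. The final and initial differences share no libraries with each other, but each shares its libraries with the time comparisons above.

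One library bore on several of these values. Final wild-type replicate 1 was the highest of its group for 8 of 8 tested members, whereas it was highest for 40.2% of all tested genes, and its TMM factor, 0.927, was the lowest of all libraries. Final knock-out replicate 1 was the lowest of its group for 7 of 8 members, against 30.6% of all genes. With final wild-type replicate 1 left out, the final genotype difference was -0.47 for HLA-B (adjusted p = 0.0282), -0.50 for HLA-F (adjusted p = 0.037), -0.27 for B2M (adjusted p = 0.0315) and -0.45 for NLRC5 (adjusted p = 0.00758). These 4 calls therefore did not rest on that library, while that of HLA-E did.

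**Figure D3:**
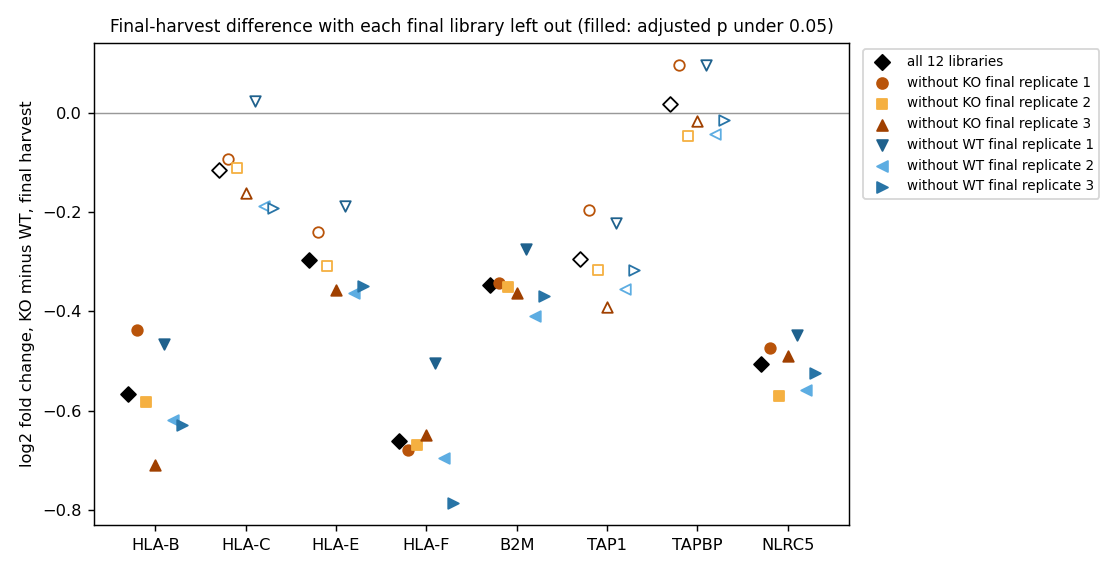
Log2 fold change of the knock-out against wild type at the final harvest (vertical axis) for each tested member, with all 12 libraries and with each of the 6 final libraries left out in turn; filled symbols have an edgeR adjusted p under 0.05. HLA-B, HLA-F, B2M and NLRC5 stay filled throughout, and the HLA-E symbols are open without final wild-type replicate 1 or final knock-out replicates 1 and 2.

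The counts for the pathway lists that follow stand beside 19.9% of all tested genes called between genotypes initially and 18.5% finally. Of 15 tested genes for proteasome subunits and peptidases (16 listed), 1 was higher at the initial harvest, PSMB10, and 1 was lower at the final harvest, BLMH, which is 6.67% of the list each time, with medians of 0.07 at both. PSMB10, an immunoproteasome subunit, rose from 1.15 ± 0.208 CPM in initial wild type to 1.83 ± 0.155 in initial knock-out (0.67, SE 0.179, adjusted p = 0.0134, edgeR), and 640 of its 1626 exon bases are shared with another gene on its strand. BLMH, a cytosolic peptidase, was at 97.8 ± 0.871 CPM in final wild type and 75.9 ± 5.57 in final knock-out (-0.36, adjusted p = 0.00959, edgeR). For BLMH final wild type was the high group, with 79.4 ± 10.7 CPM in initial wild type and 82.4 ± 2.62 in initial knock-out. The interferon-inducible subunits were scarce throughout: PSMB8 had 2 to 8 counts and PSMB9 24 to 61 counts per library. Their constitutive counterparts were abundant, with PSMB5 at mean levels from 190 to 233 CPM over the 4 groups. Per length, PSMB8 stood at 0.0308 RPKM and PSMB5 at 122 RPKM in initial wild type.

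Of 11 loading chaperones and quality-control genes, 1 (9.09%, against 19.9% of all genes) passed the test at the initial harvest and 0 (against 18.5%) at the final one. SEC61A1, the translocon channel subunit, was at 627 ± 46.9 CPM in initial wild type and 793 ± 49.3 in initial knock-out (0.34, SE 0.106, adjusted p = 0.0343, edgeR). The medians were 0.06 at both harvests. Of 14 tested genes for class I turnover and traffic, 14.3% were called initially and 7.14% finally. TRIM21, a ubiquitin ligase that binds antibody in the cytosol, rose at the initial harvest (0.50, adjusted p = 0.0038) and MARCHF9, a membrane ubiquitin ligase, fell (-0.29, adjusted p = 0.014). At the final harvest SEC24D, a coat subunit of vesicles leaving the endoplasmic reticulum, was the only one of the 14 called, at 43.3 ± 1.93 CPM in knock-out and 56.9 ± 4.42 in wild type (-0.39, SE 0.0836, adjusted p = 0.00291, edgeR). SEC24D also rose in wild type over time (0.34, adjusted p = 0.0215).

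Among 23 transcription regulators of class I genes, 3 fell and 1 rose in the initial knock-out and 2 fell in the final knock-out, with medians of -0.02 and -0.07. These are 17.4% of the list initially, near the 19.9% of all genes, and 8.70% finally, below the 18.5% of all genes. FOXP1, a forkhead repressor, was lower at both harvests, at 3.45 ± 0.636 CPM in initial wild type against 1.61 ± 0.260 in initial knock-out (-1.10, adjusted p = 0.000595) and 3.60 ± 0.719 against 2.25 ± 0.232 at the final harvest (-0.68, adjusted p = 0.0158, edgeR). RFXANK, a subunit of the RFX complex that binds the X box of class I promoters, was at 36.7 ± 1.74 CPM in final wild type and 29.3 ± 1.67 in final knock-out (-0.33, SE 0.0789, adjusted p = 0.00763, edgeR), and did not pass initially (-0.15, adjusted p = 0.21). CREB1, which binds the X2-type site, was lower at the initial harvest (-0.45, adjusted p = 0.00846) and not called at the final one (-0.25, adjusted p = 0.142). The others called initially were SP1 (-0.26, adjusted p = 0.018) and TRAF3 (0.26, adjusted p = 0.0144). NFYA, a subunit of the CCAAT-binding factor, fell over time in wild type, from 72.3 ± 2.34 to 58.8 ± 1.68 CPM (-0.30, adjusted p = 0.0196).

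Of 13 tested interferon signalling genes (17 listed), 2 fell and 1 rose in the initial knock-out, and 3 fell and 1 rose in the final knock-out. That is 23.1% called initially, near the 19.9% of all genes, and 30.8% finally, against 18.5%. STAT2, which carries type I interferon signals, was at 112 ± 14.5 CPM in initial wild type and 76.6 ± 8.38 in initial knock-out (-0.55, adjusted p = 0.00314), and at 107 ± 13.3 against 80.1 ± 8.66 at the final harvest (-0.41, adjusted p = 0.0198, edgeR). STAT3, activated chiefly by interleukin-6 family cytokines, was lower as well (-0.31, adjusted p = 0.00963 initially, and -0.39, adjusted p = 0.0019 finally). IFNGR1, a chain of the interferon-gamma receptor, was lower at the final harvest (-0.39, adjusted p = 0.0158) and the kinase JAK1 higher (0.34, adjusted p = 0.00341). For JAK1 final wild type was the low group, at 90.1 ± 4.48 CPM. Its level was 112 ± 7.18 CPM in initial wild type, 111 ± 2.96 in initial knock-out and 114 ± 0.994 in final knock-out. SOCS1, an inhibitor of JAK kinases, was at 0.461 ± 0.222 CPM in initial wild type and between 1.07 and 1.17 on average in the other groups (1.34, adjusted p = 0.00164 for genotype initially). SOCS3, a related inhibitor, fell over time in the knock-out (-0.46, adjusted p = 0.0383). IFNG and IRF9 had 0 counts in all libraries, IFNB1 at most 1 and IFNL1 at most 2, and 1513 of 3582 exon bases of IRF9 are shared with another gene on its strand.

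Of 31 tested interferon-stimulated genes outside class I (39 listed), 7 were lower and 5 higher in the initial knock-out, and 8 lower and 5 higher in the final knock-out. In either direction these are 38.7% of the list initially, against 19.9% of all genes, and 41.9% finally, against 18.5%, with medians of -0.09 and -0.12. IFIH1, a sensor of double-stranded RNA, was at 12.01, 11.98 and 13.2 CPM in initial wild type, 16.3, 16.8 and 17.5 in final wild type, 3.86, 4.79 and 4.82 in initial knock-out, and 5.61, 5.28 and 6.25 in final knock-out. Its genotype differences, -1.46 (SE 0.111) and -1.56 (SE 0.108), were larger than those of any member. OASL, an antiviral 2′-5′ oligoadenylate synthetase-like protein, was lower too (-0.82, adjusted p = 0.00169 initially, and -1.02, adjusted p = 0.000175 finally). SAMD9, an antiviral factor, rose in wild type from 18.3 ± 3.48 to 30.7 ± 0.787 CPM (0.74, adjusted p = 0.000749) and was lower in the final knock-out (-0.55, adjusted p = 0.00232), as NLRC5 and B2M were. Higher in the final knock-out were the 2′-5′ oligoadenylate synthetase OAS2 (0.85), the antiviral enzyme RSAD2 (1.40), the antiviral ligase TRIM22 (0.98), IFIT2 (0.47) and IFIT3 (0.48), all with adjusted p under 0.05 in edgeR.

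Of 18 tested class I-like molecules and natural killer cell ligands (19 listed), 4 rose and 3 fell in the initial knock-out and 1 rose and 4 fell in the final one. In either direction these are 38.9% initially, against 19.9% of all genes, and 27.8% finally, against 18.5%. RAET1L, a ligand of the activating receptor NKG2D, was at 1.99 ± 0.0756 and 2.25 ± 0.363 CPM in initial and final wild type and at 4.80 ± 0.367 and 4.06 ± 0.205 in the knock-out (1.27 and 0.86, adjusted p = 5.2e-06 and 0.000291, edgeR). ULBP1, a further NKG2D ligand, was lower at both harvests (-0.88 and -0.55). MICA, an NKG2D ligand encoded between HLA-B and TAP2, was at 5.40 ± 0.566 CPM in initial wild type and 10.1 ± 0.325 in initial knock-out (0.91, adjusted p = 5.56e-05), but at 7.46 ± 1.06 and 7.78 ± 0.704 at the final harvest (0.06, adjusted p = 0.79). Its neighbouring relative MICB was higher at the initial harvest (0.55, adjusted p = 0.00619), as was the protein C receptor PROCR (0.45, adjusted p = 0.00158). HFE, the class I-like regulator of iron uptake, was lower at both (-0.39 and -0.52), as was AZGP1 (-0.998 and -2.08), a secreted class I-like protein with under 1 CPM on average in every group. CD274 (PD-L1), a T cell inhibitory ligand, was at 3.93 ± 0.990 CPM in final wild type and 2.54 ± 0.339 in final knock-out (-0.63, adjusted p = 0.0185, edgeR).

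Class II presentation genes were scarcely counted, and 6 of the 12 listed had too few counts to be tested. Of the other 6, HLA-DRA, at 0.577 ± 0.0431 CPM in initial wild type and 0.244 ± 0.160 in initial knock-out, was called lower at the initial harvest (-1.23, adjusted p = 0.028, edgeR), with 0 of 6 called at the final one. The invariant chain CD74 was below 1 CPM on average in every group and lower over both harvests together (-0.66, adjusted p = 0.00742).

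**Figure D4:**
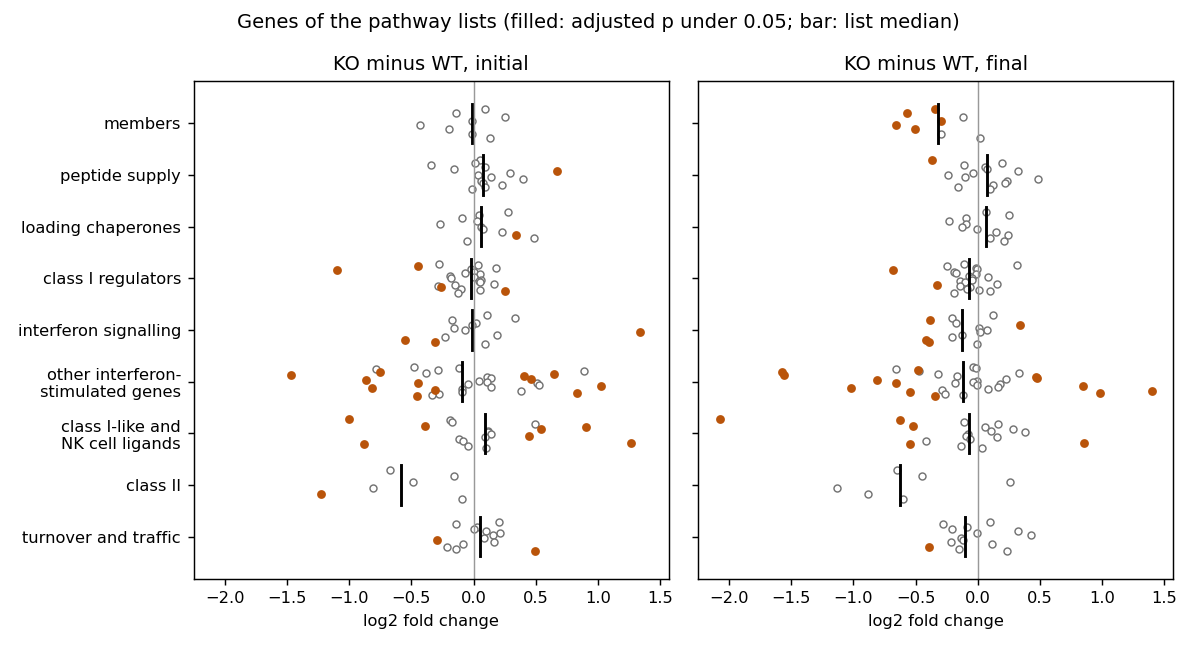
Log2 fold change of the knock-out against wild type (horizontal axis) at the initial and the final harvest for each tested gene of the members and of 8 pathway lists; filled points have an edgeR adjusted p under 0.05 and black bars are list medians. The members' median is -0.01 in the initial panel and -0.32 in the final one, while peptide supply and loading chaperones have medians of 0.06 to 0.07 at both and interferon-stimulated genes hold filled points on both sides of 0.

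Of the 9 members, 7 lie on the short arm of chromosome 6, over 3.59 Mb from the start of HLA-F to the end of TAPBP, and B2M and NLRC5 lie on chromosomes 15 and 16. Much of that arm was lower in the knock-out: of 156 tested genes more than 2 Mb before HLA-F, 131 were called lower and 0 higher at the initial harvest, with a median of -1.09, and 129 lower and 0 higher at the final one, also with a median of -1.09. The 2 Mb limit was set with these values known. The 20 tested genes in the 2 Mb just before HLA-F had medians of -0.05 and -0.04, and the 63 tested neighbours of the members (of 309 in the table between HLA-F and TAPBP) had medians of -0.07 and -0.10. Among these neighbours 3 were higher and 8 lower initially and 4 higher and 8 lower finally, or 17.5% and 19.0% called, near the shares of all genes, 19.9% and 18.5%. RGL2, a Ral exchange factor next to TAPBP, was lower at both harvests (-0.84 and -0.46), as were ATF6B, an endoplasmic reticulum stress factor (-0.67 and -0.43), and PPP1R10, a phosphatase regulator (-0.36 and -0.41). HLA-F, the member nearest to the lowered stretch, also had the lowest member estimate at both harvests, and HFE lies within that stretch. Whether the level of the stretch bears on HLA-F was not tested.

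**Figure D5:**
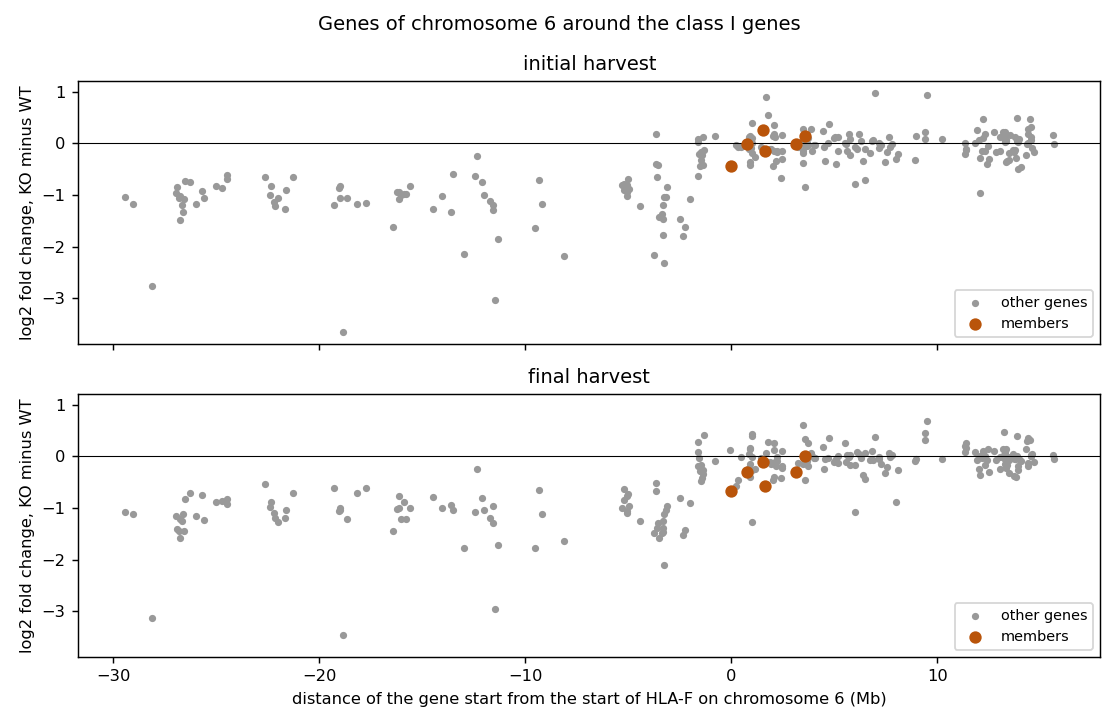
Log2 fold change of the knock-out against wild type (vertical axis) at the initial and final harvest for tested genes of chromosome 6, by distance of the gene start from the start of HLA-F in Mb (horizontal axis). Orange points are members. Tested genes of low mean level or far from HLA-F are left out of the plot, and the most extreme values are drawn at a fixed limit. Genes more than 2 Mb before HLA-F lie around -1.09, the median at both harvests of all 156 tested genes there. The members lie at the start of the stretch around 0.

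The genes whose pattern over the 12 libraries was most like that of each member were found by the root mean square difference of log2 CPM after centring each gene, over 12529 genes. The closest was ADIRF-AS1 for HLA-B (0.09), PLOD1 for HLA-C (0.06), KDELR1 for HLA-E (0.05), CLDN4 for HLA-F (0.10), MVP for B2M (0.07), MAN2B1 for TAP1 (0.08), ABCB9 for TAPBP (0.05) and MIA2 for NLRC5 (0.09). The closest fellow member was HLA-E for HLA-B (0.13), B2M and TAP1 (0.12 and 0.14), B2M for HLA-E (0.12) and for NLRC5 (0.18), HLA-B for HLA-F (0.19), and TAPBP and HLA-C for each other (0.11). No member was the closest of all genes to another: between 0.112% and 3.86% of genes were closer than the closest fellow member. The 12 points share libraries and their scaling, so these are descriptions.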

How the data were processed

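RNA-seq libraries of HCT116 cells, 3 in each of 4 groups, were analysed from the authors' deposited table of raw counts per gene. STAR, Subread and featureCounts with hg38 were used upstream, per the submitters' processing notes. Versions, the annotation release, strandedness and the handling of multiply mapping reads are not given in the sources used here. Gene coordinates are the table's own: 37318 of its versioned IDs are found in GENCODE 29, each at identical GRCh38 coordinates. Symbols were matched for 60506 of 60648 genes, and 5 broken lines were left out.

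Low-count genes were removed by filterByExpr (edgeR 4.0.16, limma 3.58.1, R 4.3.3), which left 18289. A robust quasi-likelihood model of all 12 libraries with TMM factors and 4 group means gave 6 comparisons, called at a Benjamini-Hochberg adjusted p under 0.05. The script was tested on simulated counts. Alternatives were DESeq2 1.42.0, RLE and upper-quartile factors, 2 other low-count filters, only the compared libraries, a replicate block, a 1.5-fold threshold test and leaving out each library. CPM and RPKM were computed here from the deposited counts. The counts of replicates differed by more than sampling noise in every pair. The floor given for TAP2 covers counting error only, while SDs and SEs include the spread between libraries.

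Members, lists and alternatives were chosen with earlier results of these data known. By rule, each list gave the 3 genes of smallest adjusted p in the average genotype comparison and the 1 of smallest adjusted p in each time comparison and the interaction, where under 0.05, and each member the gene of most similar pattern. Genes named beyond this rule (BLMH, SP1, TRAF3, IFNGR1, JAK1, MICB, AZGP1, CD274, OAS2, RSAD2, TRIM22, IFIT2, IFIT3, IFI6, PSMB5, PSMB8, PSMB9, and those listed as hardly counted) were chosen after their values were seen.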

Additional observations from a re-analysis of the deposited data

Results flagged for a closer look

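In 4 genes of the pathway lists, the genotype difference changed between the initial and the final harvest by the interaction test of edgeR (Benjamini-Hochberg adjusted p under 0.05), which called 1.28% of all tested genes. For IFI35, an interferon-induced protein, the change was -0.82 on the log2 scale (adjusted p = 0.0306): its level was 9.60, 11.7 and 10.9 CPM in initial wild type, 10.2, 11.5 and 13.2 in final wild type, 6.51, 6.92 and 5.69 in initial knock-out, and 3.9999, 3.57 and 4.19 in final knock-out. Its knock-out libraries were thus below all wild-type ones at both harvests and further below at the final one.

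For MICA the change was -0.85 (adjusted p = 0.0205). Its knock-out libraries, 9.79, 10.4 and 10.2 CPM at the initial harvest, were above the wild-type ones, 5.47, 5.93 and 4.81. At the final harvest the libraries of both genotypes overlapped, with 6.97, 8.16 and 8.21 in knock-out and 8.63, 7.22 and 6.54 in wild type.

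For PROCR, a class I-like receptor of protein C, the change was -0.55 (adjusted p = 0.038): group means were 50.01 ± 4.4 CPM in initial wild type, 71.2 ± 6.35 in final wild type, 68.2 ± 2.72 in initial knock-out and 66.5 ± 3.51 in final knock-out (SD, n = 3). For IFI6, an interferon-induced mitochondrial protein, it was -0.96 (adjusted p = 0.0497), with 6.83 ± 1.73, 11.3 ± 1.30, 10.7 ± 0.903 and 9.04 ± 1.34 CPM in the same order. In both, initial wild type was the lowest group.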

How the results depend on the processing

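Of 944 member values under the alternatives, 911 kept their direction and side of the threshold, 29 lost a call, 4 gained a call and 0 called values changed sign; 17 values that were not called changed sign. Lower calls of HLA-B, HLA-F, B2M and NLRC5 at the final harvest were lost only in the test against a 1.5-fold change, where 0 members were called in the final, the average and the wild-type time comparison. HLA-E was also lost with upper-quartile factors (adjusted p = 0.067) and with only the compared libraries (adjusted p = 0.0865). Members called over time in wild type were 2, but 1 without a low-count filter and 0 with only the compared libraries. DESeq2 called 1 member, B2M, in the interaction. With single libraries left out, members called ranged from 4 to 5 in the final, 0 to 2 in the initial and 0 to 2 in the wild-type time comparison.

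All genes called against a 1.5-fold change were 643 (from 3635) initially, 699 (from 3391) finally, 86 (from 1183) over time in wild type, 16 (from 270) over time in knock-out, 868 (from 5499) on average and 36 (from 235) in the interaction. DESeq2 called 586 over time in knock-out and 456 in the interaction, no filter gave 484 and 423, and only the compared libraries gave 728 over time in knock-out and 578 in wild type. Leaving out single libraries gave 2423 (without initial knock-out replicate 2) to 4615 initially, 627 (without final wild-type replicate 3) to 1399 over time in wild type, 94 (without initial knock-out replicate 3) to 463 (without initial wild-type replicate 2) over time in knock-out, and 124 to 444 (without the same 2 libraries) in the interaction. The cause was not tested. Over the alternatives, adjusted p ran from 0.0237 to 1 for HLA-E finally, from 0.00739 (B2M) and 0.00303 (NLRC5) to 1 over time in wild type, and from 0.0211 to 0.999997 for B2M in the interaction.

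Whether replicate numbers pair the libraries could not be settled. Deviations of same-numbered libraries correlated between -0.358 and 0.238, with 6 of 18 pairs over 0.1. Those of libraries with different numbers correlated between -0.427 and 0.388, with 7 of 36 pairs over 0.1. With the replicate number as a block, 4 members were called at the final harvest (HLA-E at -0.29, adjusted p = 0.0527), 0 initially, 2 over time in wild type and 3 on average, and all genes called were 3298 finally and 3539 initially. HLA-F, at 87 to 158 counts per library, and TAP2 are limited by depth.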
